A study of Mus musculus with 6 samples.

Results

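Bile acid synthesis and transport was examined through 10 genes in liver: 4 enzymes of synthesis (Cyp7a1, Cyp8b1, Cyp27a1 and Cyp7b1), both genes of amino acid conjugation (Slc27a5 and Baat), 2 transporters (Slc10a1 and Abcb11) and 2 nuclear receptors (Nr1h4 and Nr0b2). The 10 genes were taken by symbol from 47232 gene names, all 10 had a value above 0 in every mouse, and all 10 were among the 18619 genes that passed the filter on low values. The study compared liver of 3 laboratory mice with that of 3 wild mice (Mus musculus). Laboratory mice were adult males of the inbred strain C57BL/6, bought from a supplier and killed on arrival. Wild mice were outbred adults, trapped at a pair of localities and then housed for some months under natural light and ambient temperature, and no genotype or treatment is given for either group. Of the wild mice, only the first was male, so origin and sex differed together in 2 of the 3 wild mice, and strain, housing, diet and season cannot be told apart from origin.

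Hepatocytes make bile acids from cholesterol, and these detergents carry fat into solution in the gut. In the classical pathway CYP7A1 adds the first hydroxyl group and sets the rate, and CYP8B1 then steers the product towards cholic acid. In the alternative pathway CYP27A1 oxidises the side chain and CYP7B1 hydroxylates the ring. SLC27A5 activates the acid with coenzyme A and BAAT joins it to taurine or glycine. The export pump ABCB11 (BSEP) moves the conjugates into the canaliculus, and SLC10A1 (NTCP) returns them from portal blood to the hepatocyte. The bile acid receptor FXR, encoded by Nr1h4, induces Abcb11 and Nr0b2, and SHP, the product of Nr0b2, lowers transcription of Cyp7a1.

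Promoter sequences were available from RefSeq on GRCm38.p6 for 6 of the 10 genes, and 4 are shown. These belong to a known FXR target (Abcb11), to the co-repressor that FXR induces (Nr0b2), to the enzyme of cholic acid synthesis (Cyp8b1) and to the uptake transporter (Slc10a1). Each run holds the 250 bases before a RefSeq start, 5′ to 3′ on the strand of the gene. Abcb11 lies at chr2:69342617-69342866 on the minus strand, Nr0b2 at chr4:133553126-133553375 on the plus strand, Cyp8b1 at chr9:121916306-121916555 on the minus strand and Slc10a1 at chr12:80968706-80968955 on the minus strand. Capitals mark the motifs searched: an inverted repeat of AGGTCA spaced by 1 base with at most 1 mismatch (the kind of element FXR is known to bind), TCAAGG (the start of a site known for NR5A2) and TATAAA, each on both strands.
Abcb11: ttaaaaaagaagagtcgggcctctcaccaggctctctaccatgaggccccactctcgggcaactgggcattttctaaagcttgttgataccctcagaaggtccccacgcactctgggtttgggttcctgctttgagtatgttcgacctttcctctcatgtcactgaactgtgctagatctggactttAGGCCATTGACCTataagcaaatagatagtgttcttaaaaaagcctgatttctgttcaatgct
Nr0b2: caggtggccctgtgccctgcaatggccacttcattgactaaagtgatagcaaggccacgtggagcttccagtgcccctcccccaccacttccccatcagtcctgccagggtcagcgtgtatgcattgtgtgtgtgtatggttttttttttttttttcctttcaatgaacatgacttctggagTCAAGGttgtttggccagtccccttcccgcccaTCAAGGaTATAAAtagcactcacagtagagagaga
Cyp8b1: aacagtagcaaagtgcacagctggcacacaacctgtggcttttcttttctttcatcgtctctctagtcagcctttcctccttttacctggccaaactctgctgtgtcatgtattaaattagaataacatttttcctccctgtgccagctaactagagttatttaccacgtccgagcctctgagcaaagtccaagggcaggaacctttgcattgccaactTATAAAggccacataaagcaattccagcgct
Slc10a1: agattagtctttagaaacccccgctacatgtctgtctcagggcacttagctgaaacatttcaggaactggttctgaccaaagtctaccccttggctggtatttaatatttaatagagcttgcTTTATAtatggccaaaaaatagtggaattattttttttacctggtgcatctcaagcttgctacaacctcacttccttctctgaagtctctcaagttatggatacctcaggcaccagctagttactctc
In Abcb11 the inverted repeat lay 63 to 51 bases before the start, and among 32851 promoter windows of this length 0.0791% held such a repeat. In Nr0b2, TCAAGG stood at 68 to 63 and again at 35 to 30 bases before the start, followed by TATAAA at 28 to 23 bases, and TCAAGG occurred in 12.5% of all windows. TATAAA lay 31 to 26 bases before the start of Cyp8b1, while Slc10a1 held it on the opposite strand at 128 to 123 bases, and 12.4% of all windows held it. The windows of Cyp27a1 and Nr1h4 and a further window of Slc10a1 held none of these motifs and are not shown, so every window shown holds a match. Matches describe letters in these windows and were not tested as binding sites.

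Levels were measured as FPKM (fragments scaled to transcript length and library size) and as zFPKM, for which the authors subtracted the mode of each mouse's own log2 FPKM distribution and divided by its SD. A zFPKM of 0 is therefore the mode of a mouse, and a difference of 1 corresponds to one such SD, which lay between 2.51 and 3.12 in log2 FPKM. No read counts were used, so depth is known only in relative terms, from 0.922 to 1.36 with laboratory mouse 2 as 1. The first principal component (43.8% of the variance) parted the groups, and the second (32.5%) set laboratory mouse 3 and wild mouse 1 apart from the other 4 mice, so results are also given without these 2 mice. The scales differed in their centre: over all genes tested the median difference, laboratory minus wild, was 0.005 in zFPKM but -0.47 in log2(FPKM + 0.1), and changes on the latter scale are read against that shift. Where laboratory mice were set against the 1 wild male alone, the median difference in zFPKM over all genes was 0.27. Differences and lost calls in that comparison are read against this shift. Hepatocyte markers were abundant in all mice, with Ttr between 7137 and 16515 FPKM. The intestinal genes Cdx1, Cdx2 and Fabp6 were listed at 0 in all 6 mice. Of the same list of enterocyte markers, however, Fabp2 lay between 24.0 and 43.4 FPKM. Vil1, Lct and Krt20 were at most 0.127, 0.0314 and 0.0198 FPKM. In these bulk samples a smaller number of hepatocytes and less RNA per hepatocyte cannot be told apart.

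**Figure D1:**
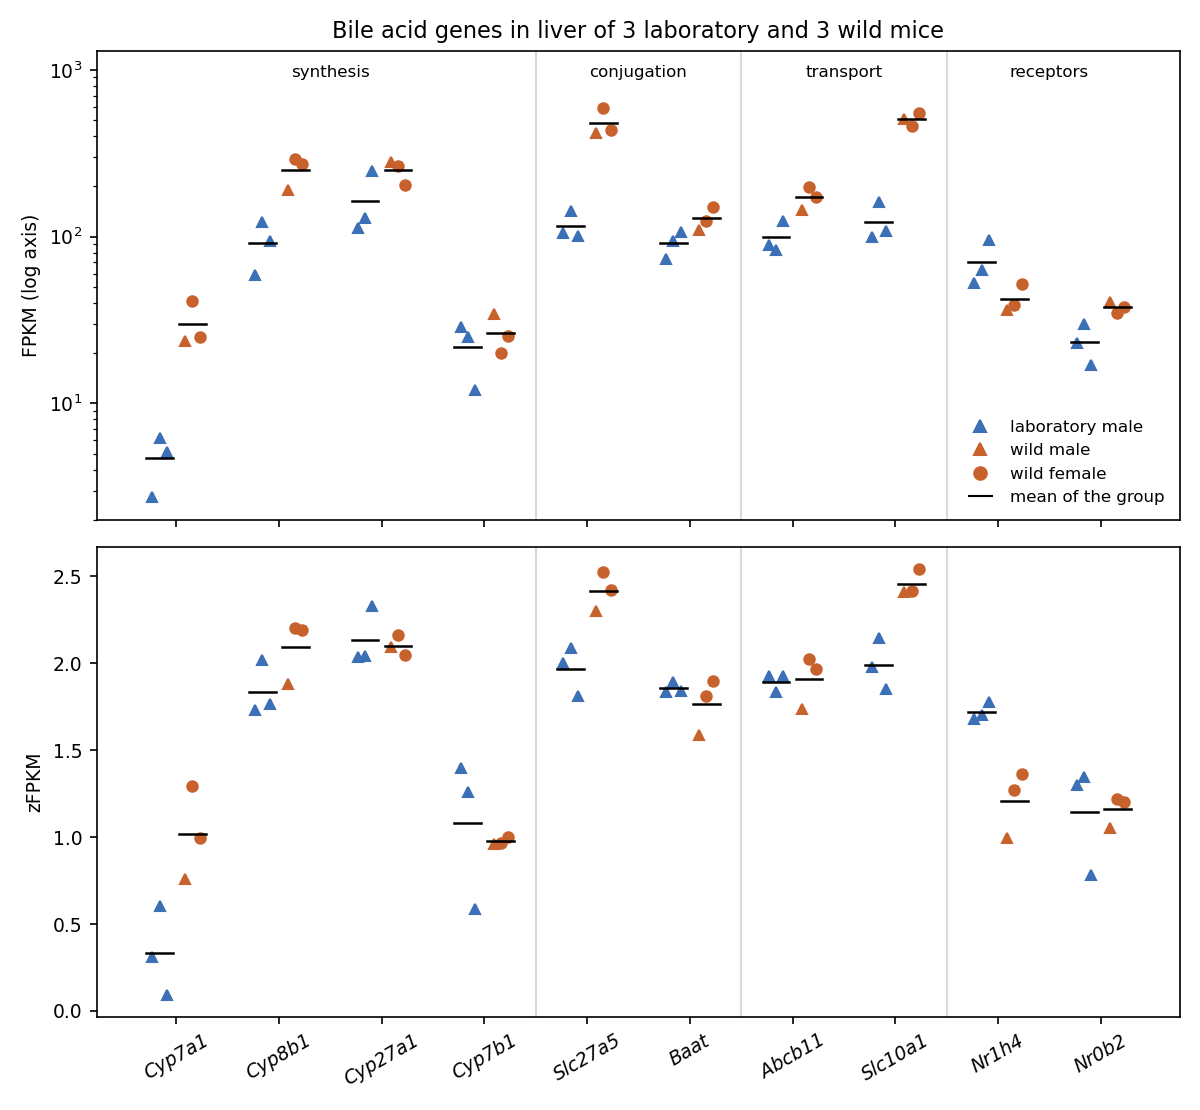
FPKM on a log axis (top) and zFPKM (bottom) of the 10 bile acid genes, with 1 point for each of 3 laboratory and 3 wild mice, triangles for males, circles for females and a line at the mean of each group. Cyp7a1, Slc27a5 and Slc10a1 stood higher in all 3 wild mice on both scales, Nr1h4 stood higher in all 3 laboratory mice, and the other 6 genes overlapped in zFPKM.

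Across the 10 genes, 3 were lower in laboratory mice (Cyp7a1, Slc27a5 and Slc10a1), 1 was higher (Nr1h4) and 6 did not pass the test (limma on zFPKM, adjusted p under 0.05 over all genes tested). In the background, 7.28% of all genes tested were lower in laboratory mice and 7.17% were higher. The median difference of the 10 genes was -0.02, beside 0.005 over all genes tested. In FPKM, every wild mouse lay above every laboratory mouse for 7 of the 10 genes and the reverse held for 1, but 43.7% of all genes tested parted the groups in the first direction and 12.1% in the other. In zFPKM the groups did not overlap for 4 genes, 3 of them higher in wild mice and 1 higher in laboratory mice, beside 14.1% and 14.2% of all genes tested. The same 4 genes passed when laboratory mouse 3 and wild mouse 1 were left out, together with Cyp7b1, in a fit that called 15.9% of all genes lower and 14.6% higher. No member passed in limma without the trend of variance with expression (4 at an unadjusted p under 0.05, beside 3951 of 18619 genes). The same held with no filter on low values (4 at an unadjusted p under 0.05, beside 3214 of 47232 genes).

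Positions are those of the files, on GRCm38.p6. Cyp7a1 (chr4:6265612-6275632) encodes cholesterol 7α-hydroxylase, the rate-limiting enzyme of the classical pathway. Its FPKM was 2.74, 6.22 and 5.08 in laboratory mice 1 to 3, and 23.6, 40.9 and 24.9 in wild mice 1 to 3. Every wild mouse was above every laboratory mouse, and the widest gap was to wild mouse 2, a female. The mean was 6.37-fold higher in wild mice (29.8 ± 9.66, SD, n = 3) than in laboratory mice (4.68 ± 1.77, SD, n = 3). In zFPKM the level was 0.31, 0.60 and 0.09 in laboratory mice against 0.76, 1.30 and 0.995 in wild mice. The difference was -0.68 (SE 0.18, limma adjusted p = 0.00231), with adjusted p between 0.000666 and 0.428 over 18 alternatives, 14 of which kept the call. Leaving out wild mouse 2 ended the call (-0.54, limma adjusted p = 0.125), and so did setting the 1 wild male against the 3 laboratory males (-0.43, limma adjusted p = 0.298). Without laboratory mouse 3 and wild mouse 1 the difference was -0.69 (limma adjusted p = 0.0206). Within its own liver, Cyp7a1 stood at percentiles 69.1, 78.7 and 74.3 of the genes tested in laboratory mice and at 87.2, 91.5 and 87.5 in wild mice.

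Cyp8b1 (chr9:121914356-121916305), the sterol 12α-hydroxylase of cholic acid synthesis, had 58.4, 123 and 93.5 FPKM in laboratory mice 1 to 3. Wild mice 1 to 3 had 190, 290 and 273 FPKM, again with no overlap. The mean was 2.74-fold higher in wild mice (251 ± 53.9, SD, n = 3) than in laboratory mice (91.6 ± 32.3, SD, n = 3). In zFPKM, however, laboratory mouse 2 at 2.02 lay above wild mouse 1 at 1.88, and the difference of -0.25 (95% interval -0.48 to -0.03) did not pass the test (limma adjusted p = 0.134). On log2(FPKM + 0.1) the difference was -1.49 and passed (limma adjusted p = 0.00485), and of 18 alternatives 2, both on log2 FPKM, called it, with adjusted p between 0.00485 and 0.89 over all 18.

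Neither Cyp27a1 nor Cyp7b1 of the alternative pathway passed the test. Cyp27a1 (chr1:74713148-74737897), the mitochondrial sterol 27-hydroxylase, had 113, 130 and 249 FPKM in laboratory mice 1 to 3 and 281, 265 and 205 FPKM in wild mice 1 to 3. Laboratory mouse 3 fell inside the range of the wild mice, while the other 2 laboratory mice were below it. In zFPKM the difference was 0.04 with a 95% interval of -0.18 to 0.25 (limma adjusted p = 0.889). Cyp7b1 (chr3:18071944-18243890), the oxysterol 7α-hydroxylase, had 28.5, 25.0 and 11.99 FPKM in laboratory mice 1 to 3 and 34.3, 20.01 and 25.3 FPKM in wild mice 1 to 3. These ranges overlapped, and laboratory mouse 3 was the lowest of the 6. Its zFPKM difference was 0.10 with an interval of -0.20 to 0.41 (limma adjusted p = 0.742). Without laboratory mouse 3 and wild mouse 1, Cyp7b1 was higher in laboratory mice by 0.35 (limma adjusted p = 0.0149). Its adjusted p lay between 0.0149 and 0.986 over 18 alternatives.

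Ratios of 2 genes within a mouse do not depend on how that mouse was scaled. The FPKM of Cyp7a1 was 0.0961, 0.249 and 0.424 times that of Cyp7b1 in laboratory mice, and 0.687, 2.05 and 0.985 times in wild mice. The entry enzyme of the classical pathway was thus below CYP7B1 transcript in all 3 laboratory mice, and above it in 1 wild mouse. The log2 ratio was lower in laboratory mice, at -2.21 ± 1.08 (SD, n = 3) against 0.16 ± 0.80 (SD, n = 3), a difference of -2.36. Cyp8b1 to Cyp7a1 was 21.3, 19.8 and 18.4 in the laboratory animals and 8.04, 7.09 and 10.97 in the wild ones, a log2 difference of 1.21. This ratio varied little among the laboratory mice (SD 0.11 in log2, n = 3). Cyp27a1 to Cyp7a1 was 41.2, 20.9 and 48.9 in the laboratory animals and 11.9, 6.48 and 8.22 in the wild ones, a log2 difference of 2.02. None of the 3 ratios overlapped between the groups, and in the two-sided exact permutation test each gave p = 0.1, the smallest that 3 mice against 3 allow, with an adjusted p of 0.1 over 6 pairs. All 3 share Cyp7a1 and are not independent. Each of the 6 pairs sets a gene called in zFPKM beside a gene that was not, so the ratios are not separate from those calls. The share of other gene pairs without overlap was not computed.

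**Figure D2:**
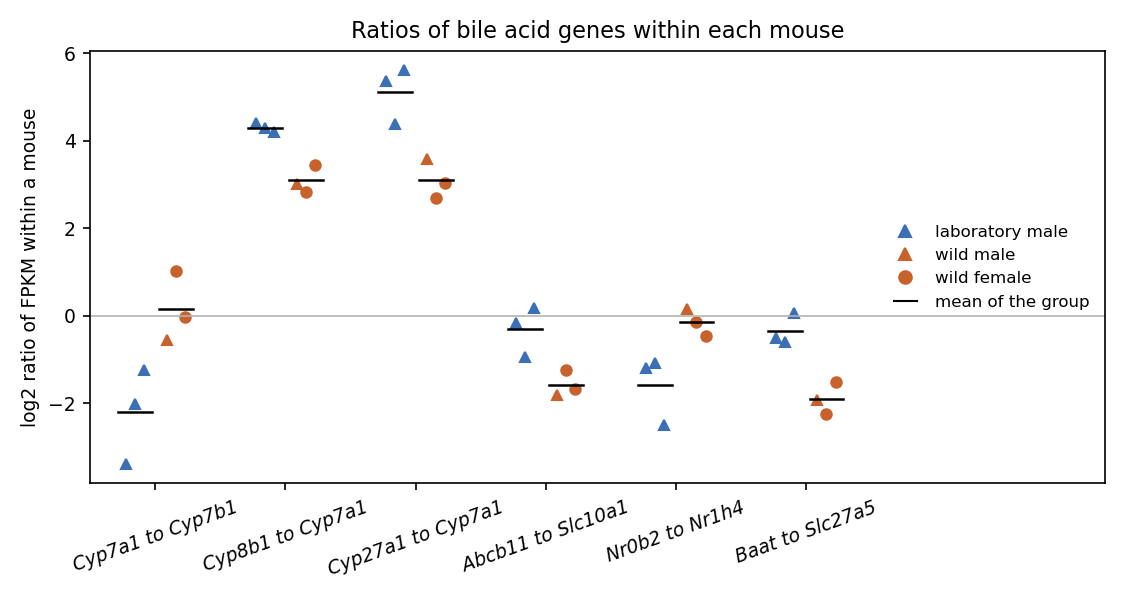
The log2 ratio of the FPKM of 2 genes within each mouse for 6 pairs, with triangles for males, circles for females and a line at the mean of the group (3 laboratory and 3 wild mice). The groups do not overlap in any of the 6 pairs, and the largest difference is that of Cyp7a1 to Cyp7b1, at -2.36. Each pair sets a gene called in zFPKM beside a gene that was not, and the share of other gene pairs without overlap was not computed.

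Of the conjugation genes, Slc27a5 was lower in laboratory mice and Baat did not pass the test. Slc27a5 (chr7:12988346-12998192) encodes bile acyl-CoA synthetase, and its FPKM was 105, 142 and 101 in laboratory mice. Wild mice 1 to 3 had 416, 587 and 433 FPKM, so that the lowest wild mouse was far above the highest laboratory mouse. The mean was 4.12-fold higher in wild mice (479 ± 94.2, SD, n = 3) than in laboratory mice (116 ± 22.6, SD, n = 3). In zFPKM the difference was -0.45 (SE 0.11, limma adjusted p = 0.000739), from 2.00, 2.09 and 1.81 in the laboratory animals to 2.30, 2.53 and 2.42 in the wild ones. It was called in 13 of 18 alternatives, with adjusted p between 0.000257 and 0.428. On log2 FPKM less the mode of each mouse, with no division by the SD, it was not called (-1.32, limma adjusted p = 0.313). The call was lost with each mouse centred on its median (-0.42, limma adjusted p = 0.105) and with 1 wild male against the laboratory males (-0.34, limma adjusted p = 0.17). Baat (chr4:49489416-49507915), the transferase that adds taurine or glycine, had 73.5, 94.6 and 107 FPKM in laboratory mice 1 to 3 and 109, 124 and 151 FPKM in wild mice 1 to 3. The groups parted narrowly in FPKM and overlapped in zFPKM, where the difference was 0.09 with an interval of -0.14 to 0.33 (limma adjusted p = 0.699). Baat to Slc27a5 was 0.699, 0.666 and 1.06 in the laboratory animals and 0.263, 0.212 and 0.350 in the wild ones, a log2 difference of 1.55 (exact permutation p = 0.1, the smallest possible). The activating enzyme and the transferase were thus near equal in laboratory mouse 3, and the activating enzyme was ahead in the other 5 mice.

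Among the transporters, Slc10a1 was lower in laboratory mice and Abcb11 did not pass the test. Slc10a1 (chr12:80953185-80968705), the sodium-dependent uptake carrier NTCP, had 99.5, 161 and 109 FPKM in laboratory mice 1 to 3. Wild mice 1 to 3 had 510, 463 and 553 FPKM and was the highest of the 10 genes in wild mice 1 and 3. The mean was 4.14-fold higher in wild mice (509 ± 45.1, SD, n = 3) than in laboratory mice (123 ± 33.0, SD, n = 3). In zFPKM it was 1.98, 2.14 and 1.85 in the laboratory animals and 2.41, 2.42 and 2.54 in the wild ones, a difference of -0.47 (SE 0.11, limma adjusted p = 0.000378). Of 18 alternatives 13 kept the call, with adjusted p between 0.000181 and 0.391, and against the 1 wild male alone the difference was -0.42 (limma adjusted p = 0.0907). With each mouse centred on its median it was -0.43 (limma adjusted p = 0.131). On log2 FPKM less the mode of each mouse it was -1.35 (limma adjusted p = 0.299). Abcb11 (chr2:69238282-69342616), the bile salt export pump whose promoter holds the inverted repeat, had 88.9, 83.3 and 124 FPKM in laboratory mice 1 to 3 and 145, 197 and 174 FPKM in wild mice 1 to 3. In zFPKM the groups overlapped, at 1.89 ± 0.05 (SD, n = 3) against 1.91 ± 0.15 (SD, n = 3). The difference was -0.01 with an interval of -0.24 to 0.22 (limma adjusted p = 0.963), while on log2(FPKM + 0.1) it was -0.81 and passed (limma adjusted p = 0.0126), within a range of 0.0126 to 0.98 over 18 alternatives. Export to uptake, Abcb11 to Slc10a1, was 0.894, 0.518 and 1.14 in the laboratory animals and 0.285, 0.426 and 0.314 in the wild ones, a log2 difference of 1.27 (exact permutation p = 0.1, the smallest possible). Laboratory mouse 2 and wild mouse 2 came close to each other, and the other mice were well apart.

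Of the nuclear receptors, Nr1h4 was the only one of the 10 genes higher in laboratory mice. Nr1h4 (chr10:89454234-89533645), which encodes FXR, had 52.8, 63.4 and 95.6 FPKM in laboratory mice 1 to 3. Wild mice 1 to 3 had 36.5, 38.6 and 52.0 FPKM, and wild mouse 3 nearly reached laboratory mouse 1. The mean was 1.67-fold higher in laboratory mice (70.6 ± 22.3, SD, n = 3) than in wild mice (42.3 ± 8.40, SD, n = 3). In zFPKM the groups were further apart, at 1.68, 1.70 and 1.78 in the laboratory animals and 0.995, 1.27 and 1.36 in the wild ones. The difference was 0.51 (SE 0.13, limma adjusted p = 0.00217), with adjusted p between 0.00282 and 0.416 over 18 alternatives, 14 of which kept the call. Against the 1 wild male, where all genes shifted by a median of 0.27, the difference was 0.73. On log2(FPKM + 1), where all genes shifted by a median of -0.20, the difference was 0.70 (limma adjusted p = 0.0587). On log2 FPKM less the mode of each mouse it was 1.44 (limma adjusted p = 0.157). Nr0b2 (chr4:133553376-133556686), which encodes SHP, had 23.1, 29.8 and 17.0 FPKM in laboratory mice 1 to 3 and 40.7, 34.8 and 37.8 FPKM in wild mice 1 to 3. FPKM was higher in every wild mouse, but zFPKM overlapped, and the difference of -0.02 had an interval of -0.31 to 0.28 (limma adjusted p = 0.966). Nr0b2 to Nr1h4 was 0.438, 0.471 and 0.178 in the laboratory animals and 1.12, 0.902 and 0.727 in the wild ones, a log2 difference of -1.44 (exact permutation p = 0.1, the smallest possible). The FXR target was thus below its receptor in all 3 laboratory mice and near it in the wild mice.

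**Figure D3:**
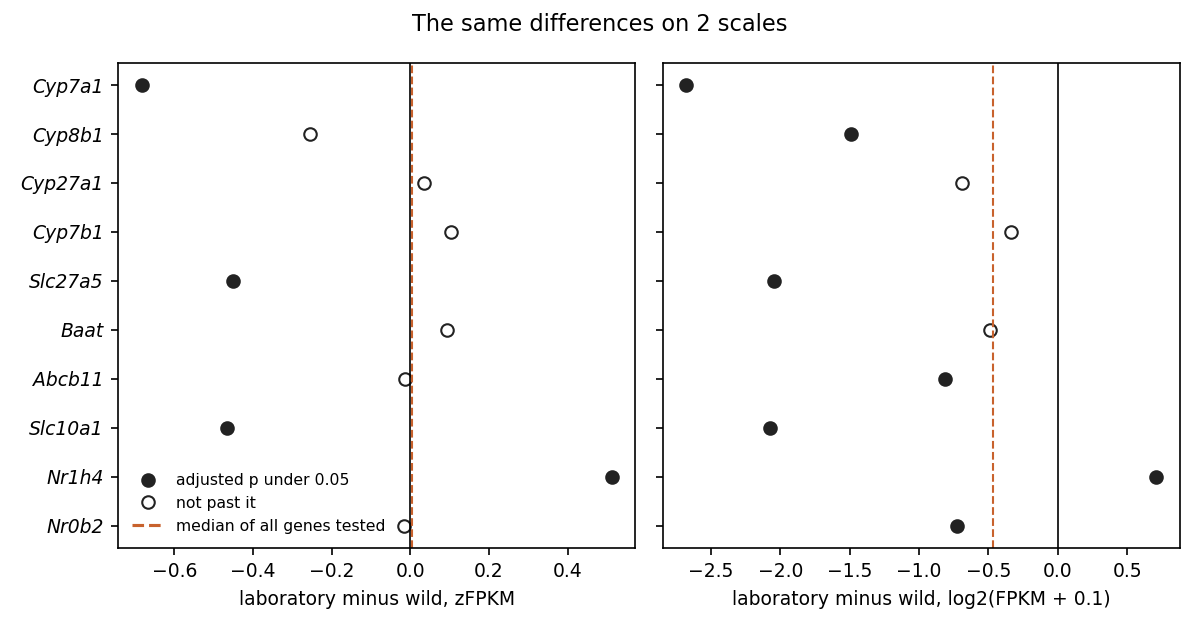
Difference, laboratory minus wild, for each of the 10 genes in zFPKM (left) and in log2(FPKM + 0.1) (right), with filled points for an adjusted p under 0.05 and a dashed line at the median of all 18619 genes tested. The 4 genes past the threshold in zFPKM are also past it on the log2 scale, where Cyp8b1, Abcb11 and Nr0b2 join them and the median of all genes is -0.47 and 37.9% of all genes were called lower and 8.19% higher.

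The genes were also ordered by level. In laboratory mice Cyp27a1 had the highest mean FPKM (164 ± 73.9, SD, n = 3), which rested on laboratory mouse 3, followed by Slc10a1, Slc27a5, Abcb11, Cyp8b1, Baat and Nr1h4, and each of these overlapped with its neighbour. Clear steps stood between Nr1h4 and Nr0b2 and between Cyp7b1 and Cyp7a1, which was the lowest of the 10 in every laboratory mouse. In wild mice Slc10a1 and Slc27a5 led and overlapped, above a gap to Cyp8b1 and Cyp27a1. Abcb11 and Baat followed, and Nr1h4, Nr0b2, Cyp7a1 and Cyp7b1 overlapped with their neighbours at the foot. Without laboratory mouse 3 the mean FPKM of Cyp27a1 in laboratory mice was 121, below Slc10a1 (130.1) and Slc27a5 (124), and in wild mice Cyp27a1 (250.4) and Cyp8b1 (251) were level.

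Within the wild mice, the 2 females were set against the 1 male in a fit in which that male was assumed to vary like the other groups. None of the 10 genes passed (limma, 0 at an unadjusted p under 0.05 also), beside 0.376% of all genes tested. All 10 differences were between 0.01 (Cyp27a1) and 0.38 (Cyp7a1) in zFPKM, higher in females, but the median of all genes was 0.38 in the same direction. With each mouse centred on its median all 10 turned negative, and none passed in limma (2 at an unadjusted p under 0.05, beside 3455 of 18619 genes). Without laboratory mouse 3, 3 members passed (Abcb11, Baat and Nr1h4), together with 4869 genes that were higher in females (26.2% of all genes tested).

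Other genes of the pathway were described by 5 lists, of which 46 genes were tested: 18 were lower in laboratory mice, 1 was higher and 27 did not pass. Of all genes tested, 7.28% were lower and 7.17% higher in the same fit. Their median difference was -0.22, beside 0.005 over all genes tested. Without laboratory mouse 3 and wild mouse 1, 19 of the 46 were lower and 4 higher, in a fit that called 15.9% of all genes lower and 14.6% higher. Against the 1 wild male 8 were lower, where 1.34% of all genes were lower and 6.04% higher. In limma without the trend, 2 were lower, both in the detoxification list, beside 1.89% of all genes.

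Of 13 other synthesis enzymes tested, 7 were lower in laboratory mice and 6 did not pass, with a median difference of -0.36. Cyp39a1, an oxysterol 7α-hydroxylase, differed by -0.76 (limma adjusted p = 0.00248), and Cyp2c70, which makes the muricholic acids of rodents, by -0.73 (limma adjusted p = 4.03e-09). The mean FPKM of Cyp2c70 was 7.21-fold higher in wild mice, and that of Cyp39a1 7.65-fold. Akr1c6 differed by -0.60 (limma adjusted p = 2.76e-07) and Akr1d1, the 5β-reductase, by -0.44 (limma adjusted p = 0.00903). Abcd3, a peroxisomal carrier of bile acid precursors, differed by -0.45 (limma adjusted p = 0.0035), and Acox2, the branched-chain acyl-CoA oxidase of side chain shortening, by -0.44 (limma adjusted p = 0.0146). Against the 1 wild male, Cyp2c70, Akr1c6 and Abcd3 kept an adjusted p under 0.05 in limma, at differences of -0.61, -0.65 and -0.53. Acox2 kept its call in 7 of 18 alternatives and lost it without laboratory mouse 1 or 3, without wild mouse 2 or 3, and without laboratory mouse 3 and wild mouse 1 together (-0.40, limma adjusted p = 0.066, within 0.00177 to 0.428 over all 18). Akr1d1 kept its call in 11 of 18 and lost it without laboratory mouse 3 or wild mouse 2 or 3, and Cyp39a1 in 13 of 18, with a loss without wild mouse 2 or 3.

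Among 6 other canalicular transporters tested, Abcc2, the conjugate pump MRP2, was lower in laboratory mice (-0.60, limma adjusted p = 0.00375) and 5 did not pass. The call of Abcc2 was kept in 12 of 18 alternatives (limma adjusted p between 0.000233 and 0.428) and was lost without wild mouse 2 (-0.53), without wild mouse 3 (-0.53) and against the 1 wild male (-0.31). Of 8 other basolateral transporters tested, 4 were lower in laboratory mice and 4 did not pass. These were Abcc4 (MRP4; -1.51, limma adjusted p = 0.00059), Slco1a4 (-0.72, limma adjusted p = 0.000552), Slco1b2 (-0.52, limma adjusted p = 0.000261) and Abcc3 (MRP3; -0.47, limma adjusted p = 0.0195). Abcc4 was low in laboratory mice, between 0.0972 and 0.142 FPKM. Abcc3 and Abcc4 are efflux pumps of the blood side and the SLCO proteins take up organic anions, so both directions of transport were represented. Against the 1 wild male only Slco1b2 of these 4 passed (-0.48, limma adjusted p = 0.0477, within 0.000239 to 0.159 over 18 alternatives). Leaving out wild mouse 3 ended the calls of Abcc4, Slco1a4 and Abcc3, and Abcc3 also lost its call without laboratory mouse 1 or 2 or wild mouse 2. Slc51a, a subunit of the basolateral exporter OST, was listed at 0 in all 6 mice.

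Of 13 other regulators tested, Klb (β-Klotho, the co-receptor for FGF15) differed by -0.73 (limma adjusted p = 0.00806) and Rxra, the partner of FXR, by -0.55 (limma adjusted p = 0.00228), and 11 did not pass. The FPKM of Rxra was 13.7, 18.4 and 16.5 in the laboratory animals and 73.1, 76.5 and 88.8 in the wild ones. FXR and its partner thus stood in opposite order between the groups. Neither Klb nor Rxra passed against the 1 wild male (limma adjusted p = 0.406 and 0.212), and the adjusted p reached 0.428 for both over their 18 alternatives. Klb also lost its call without laboratory mouse 3 or wild mouse 2 or 3, and Rxra without wild mouse 3. Fgf15, the intestinal hormone of this axis, and Gpbar1, a membrane bile acid receptor, were listed at 0 in all 6 mice.

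**Figure D4:**
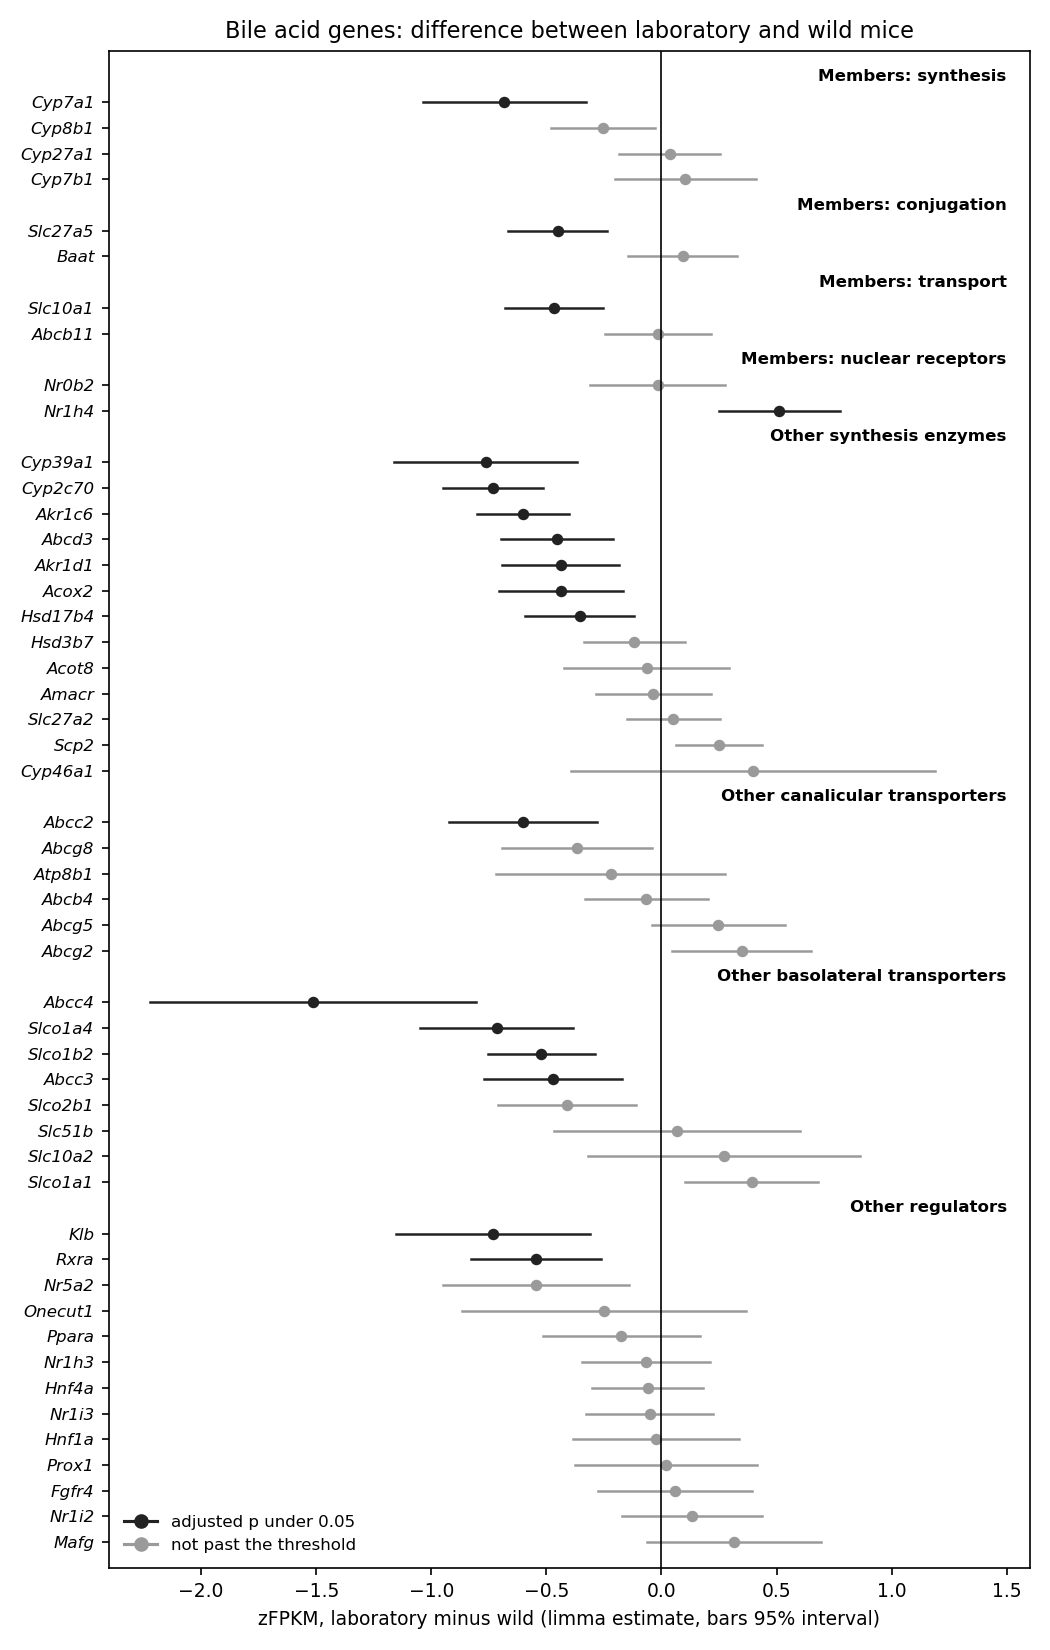
Difference in zFPKM, laboratory minus wild, with its 95% interval from limma, for the 10 bile acid genes and for the other synthesis enzymes, transporters and regulators tested, in black where the adjusted p was under 0.05. Every black point other than Nr1h4 lies below 0, and Abcc4 lies lowest at -1.51.

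The detoxification list held the widest differences, with 4 of 6 genes lower in laboratory mice, 1 higher and 1 that did not pass. Ugt1a1, a glucuronosyltransferase, differed by -1.75 (limma adjusted p = 3.6e-31), and the cytochrome Cyp2b10 by -2.75 (limma adjusted p = 1.31e-12). Cyp2b10 was at 0, 0.169 and 0.122 FPKM in laboratory mice 1 to 3, so the size of its difference depends on the floor. With a floor of -5 it was -3.42. Cyp3a11 differed by -0.40 (limma adjusted p = 0.000637), but its FPKM spread from 361 to 3931 among the wild mice, and wild mouse 3 lay inside the laboratory range of 250 to 624. Its call was kept in 6 of 18 alternatives, and the difference was -0.14 without wild mouse 1 (limma adjusted p = 0.668) and -0.0099 without laboratory mouse 3 and wild mouse 1 (limma adjusted p = 0.981, the highest of the 18, the lowest being 6.83e-09). It also lost its call without laboratory mouse 3 or wild mouse 2. The sulfotransferase Sult2a1 was listed at 0 in all 3 laboratory mice, at 0.254 FPKM in the wild male, and at 982 and 675 FPKM in wild mice 2 and 3, the females. It was the only listed gene called between wild females and the wild male. Its relative Sult2a8 was higher in laboratory mice by 0.44 (limma adjusted p = 0.00205), with 199, 219 and 171 FPKM against 211 FPKM in the wild male and 96.4 and 114 FPKM in wild females. The wild male lay within the range of the laboratory males in FPKM but below all 3 of them in zFPKM (1.94 against 2.30, 2.29 and 2.11). Without wild mouse 2 Sult2a8 lost its call. Sult2a1 and Sult2a8 are related sequences, and how the counting divided shared reads was not stated.

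Bile acid synthesis follows a daily rhythm, so 14 clock genes were read beside it. Dbp, a clock output factor that is known to drive Cyp7a1, was 9.62, 9.42 and 12.1 FPKM in laboratory mice and 0.644, 0.867 and 22.3 FPKM in wild mice. Wild mouse 3 was the highest of the 6 and wild mice 1 and 2 the lowest. Among the wild mice, the FPKM of Clock, Nr1d1, Nr1d2, Tef, Hlf, Per1, Per2, Ciart and Bhlhe41 was also highest in wild mouse 3. That of Arntl, Npas2, Nfil3 and Cry1 was lowest in wild mouse 3. Cyp7a1 was 23.6, 40.9 and 24.9 FPKM in wild mice 1 to 3. The zFPKM difference of Dbp was 0.9995 (limma adjusted p = 0.000118), that of Arntl (BMAL1) was -0.65 (limma adjusted p = 0.0367), and 12 did not pass. For Dbp 8 of 18 alternatives kept the call, with adjusted p between 6.2e-06 and 0.428 in limma, and it was lost without laboratory mouse 3 or wild mouse 1. For Arntl 10 of 18 kept it, with adjusted p between 0.00198 and 0.326, and it was lost without laboratory mouse 1 or 2 or wild mouse 2 or 3. Wild mouse 3 was also the only one trapped at its locality, while wild mice 1 and 2 shared the other. Time of death was not among the labels. The parts of locality and of time of death in the differences were not tested.

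Markers of other cells of the tissue were also read, and their part in the differences was not tested. Of 10 biliary epithelial markers tested, Spp1 was higher in laboratory mice (0.75, limma adjusted p = 2.98e-05) and 9 did not pass. The median zFPKM difference of the 10 was 0.50, beside 0.005 over all genes tested, with 8 of 10 higher in laboratory mice by value. The FPKM of Krt19, Spp1 and Muc1 was higher in every laboratory mouse than in any wild mouse, as for 12.1% of all genes tested. The reverse held for Aqp1, Anxa4 and Prom1, as for 43.7% of all genes tested. The summed FPKM of the 10 biliary markers, most of it from Spp1 and Anxa4, lay between 56.4 and 88.4 in laboratory mice. It lay between 51.8 and 89.0 in wild mice, and Krt19 and Epcam were at most 5.96 and 1.07 FPKM. Of 10 hepatocyte markers tested, 5 were lower and 4 higher in laboratory mice. Alb, with a failed estimate, and Cps1, not listed a single time for every mouse, were left out. The summed FPKM of the 10 was 59521 to 76335 in laboratory mice against 50298 to 53226 in wild mice. Most of it came from Apoa1, Apoa2 and Ttr, which were among the 4 higher in laboratory mice. Hepatocyte genes thus moved in both directions, with Fga (-1.04, limma adjusted p = 5.22e-21), Tat (-0.70, limma adjusted p = 7.09e-09) and Trf (-0.59, limma adjusted p = 1.34e-10) lower. Serpina1c (0.82, limma adjusted p = 2.94e-18), Apoa1 (0.68, limma adjusted p = 3.71e-16) and Apoa2 (0.57, limma adjusted p = 1.41e-12) were higher. Transcript length also moved with origin, since the slope of zFPKM on log2 transcript length was between -0.071 and -0.065 in laboratory mice and between -0.046 and -0.0047 in wild mice. With that trend removed, the same 4 of the 10 bile acid genes passed, at -0.65 for Cyp7a1, -0.46 for Slc27a5, -0.49 for Slc10a1 and 0.49 for Nr1h4 (limma adjusted p between 0.000222 and 0.00432). That fit called 1000 genes higher and 1251 lower in laboratory mice, among 16495 genes with a transcript length.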

How the data were processed

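Liver RNA of 6 mice was sequenced as single reads of 100 bases from Illumina stranded mRNA libraries. The authors aligned the reads with kalign to a repeat-masked mouse genome (GRCm38.p6), calculated FPKM with the Tuxedo pipeline and converted it with the R package zFPKM; Picard is named in the submitters' processing notes. The deposited FPKM are scaled to transcript length and library size. The deposited zFPKM is a score in which the authors scaled log2 FPKM by the mode and SD of each mouse, so values carry that scaling. No counts were used here, and the edgeR analysis named in the methods was not repeated. Reads of wild mice were aligned to a C57BL/6 reference, and the effect on their values was not tested.

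The 10 genes, the other lists and the tests were chosen with earlier results of these data known. Of 47256 names listed a single time in every file, 24 with a failed estimate were left out and 47232 used. The filter kept genes above a zFPKM of -3 in 3 or more of 6 mice and left 18619 genes, whose lower values were raised to -3. The comparison of groups used limma 3.58.1 (R 4.3.3; lmFit, eBayes with trend, two-sided, Benjamini-Hochberg, adjusted p under 0.05). With the trend, each gene takes the variance of genes at its expression level (infinite prior degrees of freedom, and 3.74 without it). Sex was compared in a fit with 3 groups. For ratios, an exact two-sided permutation test was run in Python 3.11.15 (numpy 2.4.6; pandas 2.3.3; scipy 1.17.1; figures in matplotlib 3.10.9). Named genes were the 10 members, called genes of each list (up to 6, largest differences first), the highest and lowest genes of a list without calls, and the 3 genes most like Cyp7a1. Other genes were named after their values were seen, as markers or where listed at 0. Transcript lengths came from GENCODE and covered 88.6% of genes tested. The limma procedure was tested on simulated data, with shifts larger than any zFPKM difference of the 10 genes. Smaller shifts were not simulated. Depth is known only in relative terms, and Cufflinks' bounds on FPKM, given for 5 mice, were at most 10.6% either side for the members, so precision rests on 3 mice per group. Alternatives were other scales, floors and filters, limma without trend, sex as a covariate and each mouse left out. Removal of a length trend, log2 FPKM less the mode and leaving out 2 mice were added after the data were seen.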

Additional observations from a re-analysis of the deposited data

How the results depend on the processing

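Between laboratory and wild mice, 1335 genes were higher and 1355 lower in laboratory mice, and 4 of the 10 bile acid genes were called. On log2(FPKM + 1), 1384 genes were higher and 6858 lower, and the sign turned for Cyp27a1 (-0.69), Cyp7b1 (-0.32) and Baat (-0.49). On log2(FPKM + 0.1), 1524 were higher and 7065 lower, 7 members were called, and the sign turned for Cyp27a1 (-0.69), Cyp7b1 (-0.34) and Baat (-0.49). Quantile normalization called 3478 higher and 3804 lower and turned Nr0b2 (0.040). With each mouse centred on its median, 2685 were higher, 2585 lower and 2 members called, with a turn of sign for Abcb11 (0.021) and Nr0b2 (0.018). Log2 FPKM less the mode, with no division by the SD, called 1169 genes higher, 1039 lower and 1 member (Cyp7a1). The members that turned sign on these scales had no call in zFPKM. Removing the length trend turned Abcb11 (0.033). Without a filter, which adds genes at the floor to the fit, 15 genes were higher and 8 lower. In that fit 0 members were called in limma (4 at an unadjusted p under 0.05, beside 3214 of 47232 genes). Limma without the trend called 443 higher, 352 lower and 0 members (4 at an unadjusted p under 0.05, beside 3951 of 18619 genes). With sex as a covariate, which sets 1 wild male against the laboratory males, 1125 genes were higher and 249 lower, 1 member was called (Nr1h4), and the sign turned for Abcb11 (0.16) and Nr0b2 (0.088). Without laboratory mouse 3 and wild mouse 1, 2711 genes were higher and 2965 lower, with a turn of sign for Cyp27a1 (-0.065) and Nr0b2 (0.11). With each mouse left out in turn, the genes higher in laboratory mice ran from 661 to 1643, the genes lower from 565 to 1321 and the members called from 3 to 5. Over these the differences of members that changed sign were Cyp7b1 from -0.054 to 0.35, Cyp27a1 from -0.061 to 0.085, Abcb11 from -0.10 to 0.044 and Nr0b2 from -0.12 to 0.16. None of the 4 called members changed sign over their 18 alternatives. The cause of these changes was not tested.

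Between wild females and the wild male, 59 genes were higher and 11 lower in females and 0 members were called in limma (0 at an unadjusted p under 0.05). Counts of lower genes were 38 on log2(FPKM + 1), 26 on log2(FPKM + 0.1), 27 after quantile normalization and 29 with mice centred on their medians. Without a filter 113 were higher and 211 lower, 194 and 27 among genes with a mean zFPKM above -1, 10 and 2 without the trend, and 91 were higher with the length trend removed. Signs turned on log2(FPKM + 1) for Cyp27a1 (-0.27), Cyp7b1 (-0.59), Slc10a1 (-0.0095) and Nr0b2 (-0.16), on log2(FPKM + 0.1) for Cyp27a1 (-0.27), Cyp7b1 (-0.61), Slc10a1 (-0.0095) and Nr0b2 (-0.17), after quantile normalization for Cyp27a1 (-0.12), Cyp7b1 (-0.22) and Nr0b2 (-0.055), and with mice centred on their medians for Cyp7a1 (-0.089), Cyp8b1 (-0.16), Cyp27a1 (-0.46), Cyp7b1 (-0.45), Slc27a5 (-0.30), Baat (-0.21), Abcb11 (-0.22), Slc10a1 (-0.40), Nr1h4 (-0.15) and Nr0b2 (-0.32). With a mouse left out, higher genes ran from 0 to 4869, lower genes from 0 to 75 and members from 0 to 3, and the difference of Cyp27a1 from -0.045 to 0.068. The upper ends came without laboratory mouse 3, and without wild mouse 2 or 3 no gene passed in limma (875 and 975 at an unadjusted p under 0.05).

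The log2 ratios kept their sign with a difference of zFPKM in place of the log2 ratio and with each mouse left out. No paired analysis was possible because the labels carry no replicate numbers that link a laboratory mouse to a wild mouse. With 3 mice per group and no counts, the precision rests on the spread among mice. In limma with the trend that spread is taken over genes of similar expression, so standard errors and p-values do not measure the spread of a gene itself.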

Other observations

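By the Pearson correlation of zFPKM over the 6 mice, the genes tested with the pattern most like that of Cyp7a1 were Nme7 (r = 0.998), Tex30 (r = 0.998) and Jmjd7 (r = 0.997). Cyp7a1 itself differed between the 2 groups of mice, and the 3 genes were picked as the highest among 18619, so the values describe these mice only. The FPKM of Nme7 was 0.164, 0.394 and 0.499 in the laboratory animals and 2.40, 3.51 and 2.61 in the wild ones, of which wild mouse 2 was the highest, as for Cyp7a1.

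Fabp2 and Vil1 were the highest and lowest of the tested enterocyte markers, with Fabp2 between 24.0 and 43.4 FPKM and Vil1 at most 0.127 FPKM in the 6 mice.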
